A study of Mus musculus with 4 samples.

Results

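The 38 genes described here encode proteins of the cell division cycle: 15 of S phase, in which DNA is copied, 21 of G2 and mitosis, in which chromosomes are segregated, and Hmgb2 and Stmn1, a chromatin protein and a tubulin-binding protein that are both abundant in dividing cells. They were chosen by name and role, no measured value enters that rule, and all 38 were found among the 55487 genes of the deposited tables. RNA was measured in 4 libraries labelled as regulatory T cells (Tregs) from mouse skin, 2 from mice exposed to narrow-band ultraviolet B (UVB) and 2 from mice without UVB, numbered 1 and 2 in each group. All animals had psoriasiform dermatitis from imiquimod, given each day as 60 mg of a 5% cream on shaved back skin, and the UVB animals were irradiated 3 times on alternate days. The sources used here give no strain, age, sorting scheme or pooling of animals. Separate animals are not named as the source of the replicates, and the p-values below therefore describe spread among 4 libraries, part of which may be technical.

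Passage from G1 into S phase is driven by cyclin E with its kinase and by E2F transcription factors, which switch on genes for the MCM helicase that unwinds DNA and for enzymes that make deoxynucleotides. Later in the cycle, the MuvB complex with B-Myb and FOXM1 switches on genes for cyclin B, mitotic kinases, spindle motors and kinetochore proteins. In resting cells both sets are held low by the retinoblastoma family and the DREAM complex. Tregs in inflamed tissue are known to include dividing cells, and in skin keratinocytes, macrophages and other T cells can divide as well.

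The labelled cell type was met unevenly. Foxp3, the defining transcription factor of Tregs, stood at 3.49 and 19.3 TPM, transcripts per 1000000 transcripts, in UVB replicates 1 and 2 and was listed at 0 and at 19.4 TPM in non-UVB replicates 1 and 2. Treg markers (8 genes, led by Tnfrsf4 and Ctla4) summed to 2670 and 6241 TPM in the UVB libraries and to 2737 and 8441 TPM in the non-UVB libraries. Gamma-delta T cell genes (7 of 10 names found, led by Trdv4 and Trgc1) summed to 9199 and 246 TPM against 9552 and 176 TPM in the same order, and keratinocyte genes (12, led by Krt14 and Krt17) to 466 and 4509.9 TPM against 342 and 4049.9 TPM. Macrophage and dendritic cell genes (16, led by Cd74 and Fcer1g) summed to 21519 and 13460.2 TPM with UVB and to 12691 and 5329 TPM without it. General T cell genes (10, led by Cd3g and Trbc2) summed to 6568 and 5058 TPM with UVB and to 7148 and 7902 TPM without it. By these sums, the libraries numbered 1 stand apart from those numbered 2, within each group, in Treg, gamma-delta and keratinocyte genes. Some single genes went against their sum. Icos, of the Treg list, had 784 and 620 TPM with UVB, against 1221 and 826 TPM without it. The keratinocyte genes Krt10, Krt6a and Dsp were higher in non-UVB replicate 1 than in non-UVB replicate 2. The sum of general T cell genes did not part them, but single genes did so in opposite directions. Cd3e and Cd3g were higher in both libraries numbered 1, and Cd4, Trac, Cd2, Cd5 and Lck were lower. Cd3g had 2701 and 848 TPM with UVB, against 2560 and 968 TPM without it. Trac had 554 and 878 TPM against 274 and 2350 TPM. Genes of fibroblasts and endothelium (9, led by Pecam1 and Lum) summed to 64.5 and 27.3 TPM with UVB and to 138 and 7.28 TPM without it, and 6 of them, among them the collagens Col1a1 and Col3a1, were listed at 0 in every library. The deposited values rested on about 4.2 and 2.38 gigabases of aligned reads in the UVB libraries, and 3.41 and 2.47 gigabases in the non-UVB libraries.

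Promoter letters are shown here because E2F and MuvB act at the start sites of these genes. RefSeq promoters of GRCm38.p6, which span 250 bases before to 50 bases after a gene's start, were held for 31 of the 38 members, 12 of S phase, 18 of mitosis and Hmgb2. They were searched on both strands for the E2F motif (TTTCCCGC, TTTCGCGC, TTTGCCGC or TTTGGCGC), for the CHR, the element that MuvB complexes bind (TTTGAA or TTCGAA), and for the CCAAT box bound by NF-Y (CCAAT), with overlapping matches kept. An E2F motif was found at 5 of 12 S phase genes (41.7%) and at 1 of 18 mitosis genes (5.56%), beside 2.60% of all 27025 genes. A CHR was found at 3 of 12 S phase genes (25.0%) and at 14 of 18 mitosis genes (77.8%), beside 21.7% of all genes. CCAAT was found at 9 of 12 and 16 of 18, or 75.0% and 88.9%, beside 41.1% of all genes. The S phase genes with an E2F motif were Mcm3, Mcm5, Mcm6, Mcm7 and Uhrf1, and Mcm7 and Cdk1 held both an E2F motif and a CHR. A match is a description of the letters only. Of the following 5 promoters, Mcm5 and Mcm6 stand for the S phase genes, Aurka and Cenpf for mitosis genes near 0 TPM without UVB, and Cdk1 for a mitosis gene with both motifs. Capitals mark matches to the E2F motif and the CHR, and in Mcm5 and Mcm6 the longer run holds a match on each strand.
Mcm5 (S phase, chr8:75109259-75109558, plus strand): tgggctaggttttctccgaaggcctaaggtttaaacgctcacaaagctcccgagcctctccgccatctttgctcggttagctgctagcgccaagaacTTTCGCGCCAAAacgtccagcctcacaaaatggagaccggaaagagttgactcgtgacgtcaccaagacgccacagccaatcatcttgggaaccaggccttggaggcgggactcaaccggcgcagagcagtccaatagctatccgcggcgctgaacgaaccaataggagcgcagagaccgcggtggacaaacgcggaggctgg
Mcm6 (S phase, chr1:128359656-128359955, minus strand): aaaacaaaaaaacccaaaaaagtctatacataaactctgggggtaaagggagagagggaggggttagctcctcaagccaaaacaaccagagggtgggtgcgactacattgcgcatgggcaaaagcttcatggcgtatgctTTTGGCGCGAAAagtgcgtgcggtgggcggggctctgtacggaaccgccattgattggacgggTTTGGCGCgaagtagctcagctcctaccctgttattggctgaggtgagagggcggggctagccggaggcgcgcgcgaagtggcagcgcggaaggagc
Cdk1 (mitosis, chr10:69352863-69353162, minus strand): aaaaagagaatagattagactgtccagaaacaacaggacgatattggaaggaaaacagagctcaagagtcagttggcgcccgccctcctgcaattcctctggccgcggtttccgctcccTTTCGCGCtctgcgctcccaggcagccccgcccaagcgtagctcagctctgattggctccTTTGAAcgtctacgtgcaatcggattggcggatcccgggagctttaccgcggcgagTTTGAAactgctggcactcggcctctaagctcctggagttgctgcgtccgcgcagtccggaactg
Aurka (mitosis, chr2:172370521-172370820, minus strand): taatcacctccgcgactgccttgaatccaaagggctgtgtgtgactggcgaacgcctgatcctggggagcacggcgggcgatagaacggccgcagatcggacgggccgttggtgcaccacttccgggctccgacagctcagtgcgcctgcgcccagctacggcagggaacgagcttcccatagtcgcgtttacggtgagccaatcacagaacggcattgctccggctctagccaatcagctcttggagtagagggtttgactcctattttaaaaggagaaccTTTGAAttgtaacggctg
Cenpf (mitosis, chr1:189688037-189688336, minus strand): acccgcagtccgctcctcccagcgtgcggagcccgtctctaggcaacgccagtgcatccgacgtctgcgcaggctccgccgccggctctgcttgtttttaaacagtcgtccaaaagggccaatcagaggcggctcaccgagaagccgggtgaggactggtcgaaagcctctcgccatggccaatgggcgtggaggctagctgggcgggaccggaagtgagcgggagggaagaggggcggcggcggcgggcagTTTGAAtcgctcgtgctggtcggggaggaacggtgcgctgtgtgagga

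The members were present in every library but with gaps that differed from library to library. At 1 TPM or more, 37 and 31 of the 38 were found in UVB replicates 1 and 2, against 29 and 23 in non-UVB replicates 1 and 2. Among the 34 members that reached 1 TPM in at least 2 libraries and were tested, these shares were 97.1% and 91.2% against 85.3% and 67.6%. The same shares over all 10286 genes tested were 88.2% and 87.3% against 71.1% and 72.2%, so the order of the groups is that of all genes. In non-UVB replicate 2 the members fell below that background, and in the other 3 libraries they lay above it. Values were mostly either high or near 0. Of the 152 values of the 38 members, 105 were at 10 TPM or more (69.1%), 32 were below 1 TPM (21.1%) and 9 lay from 1 to 5 TPM (5.92%). Of the values of all genes tested, 58.9%, 20.3% and 13.3% lay in these ranges. The share below 1 TPM was thus close to that of all genes tested, though the 38 include members that were not tested. In all, 17 of the 38 members reached 1 TPM in all 4 libraries: 9 S phase genes, 6 mitosis genes, Hmgb2 and Stmn1. They were 50.0% of the members tested, close to the 46.7% of all genes tested. In bulk libraries, fewer dividing cells and less RNA per dividing cell cannot be told apart.

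**Figure D1:**
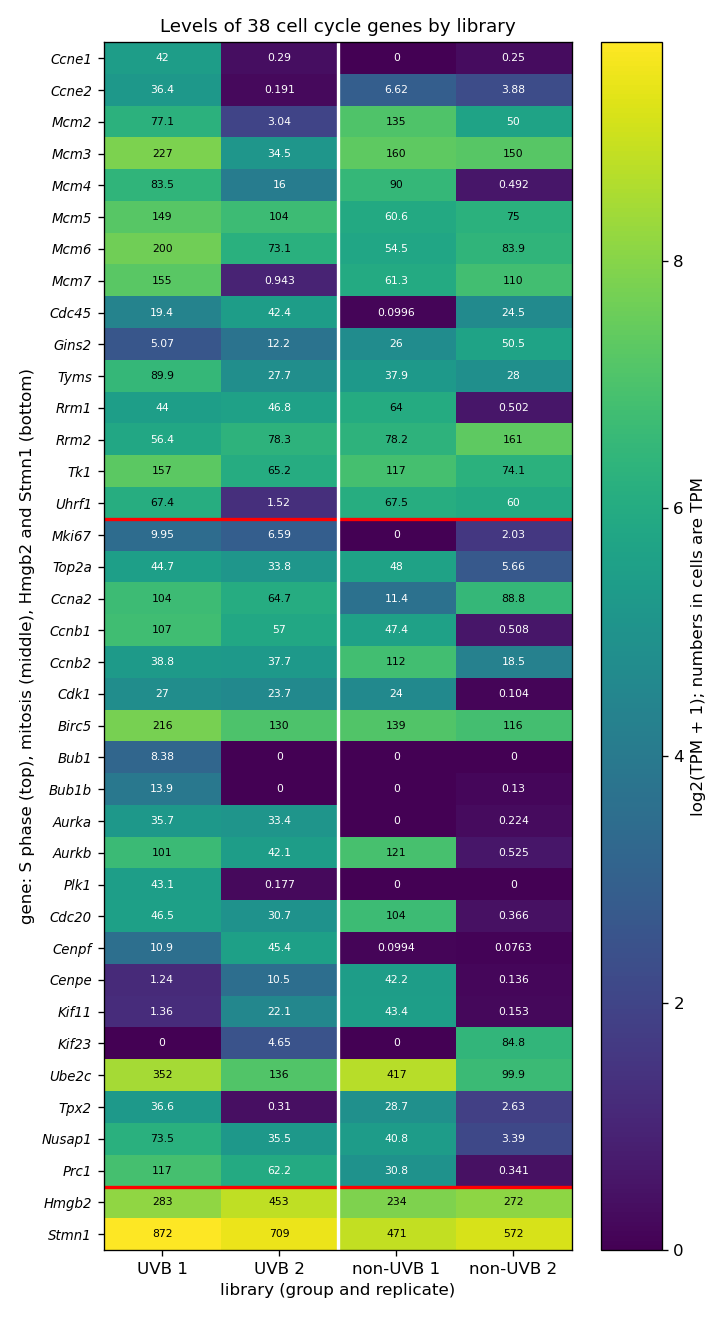
Levels of the 38 genes (rows) in the 4 libraries (columns), coloured by log2(TPM + 1) with the TPM written in each cell; red lines part S phase, mitosis and the last pair of genes. Non-UVB 2 has the most dark cells among the mitosis genes, where 12 of 21 were below 1 TPM, and UVB 1 the fewest, with Kif23 at 0.

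Gaps also fell within complexes whose subunits are made together. Mcm2 to Mcm7 encode the 6 subunits of the replicative helicase, and their levels, which TPM scales to gene length, lay within 2.95-fold of each other in UVB replicate 1 and within 2.94-fold in non-UVB replicate 1. In UVB replicate 2, Mcm5 was at 103.8 TPM and Mcm7 at 0.943 TPM, a span of 110.0-fold, and in non-UVB replicate 2, Mcm3 was at 149.6 TPM and Mcm4 at 0.492 TPM, a span of 304-fold. A different subunit was thus near 0 in each replicate numbered 2. Mcm3 had 227 and 34.5 TPM in UVB replicates 1 and 2, against 160.1 and 149.6 TPM in non-UVB replicates 1 and 2, Mcm4 had 83.5 and 16.0 TPM against 90.0 and 0.492 TPM, and Mcm6 had 200.1 and 73.1 TPM against 54.5 and 83.9 TPM. Mcm7 had 155 and 0.943 TPM with UVB, against 61.3 and 110.1 TPM without it. All 4 were lower in replicate 2 than in replicate 1 with UVB, and no such common order held without it. Ribonucleotide reductase makes deoxynucleotides from a large subunit, Rrm1, and a small one, Rrm2. Rrm1 had 44.0 and 46.8 TPM in UVB replicates 1 and 2, against 64.0 and 0.502 TPM in non-UVB replicates 1 and 2. Rrm2 had 56.4 and 78.3 TPM with UVB, against 78.2 and 161 TPM without it. In non-UVB replicate 2 the small subunit was thus at its highest and the large one near 0. Among genes of the Cdk1 kinase and its cyclins, Cdk1 had 27.0 and 23.7 TPM with UVB, against 24.0 and 0.104 TPM without it, while Ccna2 had 104 and 64.7 TPM against 11.4 and 88.8 TPM. By coverage and exon length, Mcm7 had about 12061 and 46 reads in the UVB libraries and 4095 and 5588 in the non-UVB libraries, and Rrm1 about 4773 and 3049 against 5787 and 33. Reads copied by PCR are not independent molecules, so the number of molecules behind them is unknown. Reads and TPM together give the average transcript length that the authors' quantification used, which in libraries at 1 TPM or more varied by under 1.2-fold for 28 of the 34 members tested. It varied by over 2-fold for Cenpf, Prc1 and Top2a, whose TPM are therefore less comparable between libraries.

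**Figure D2:**
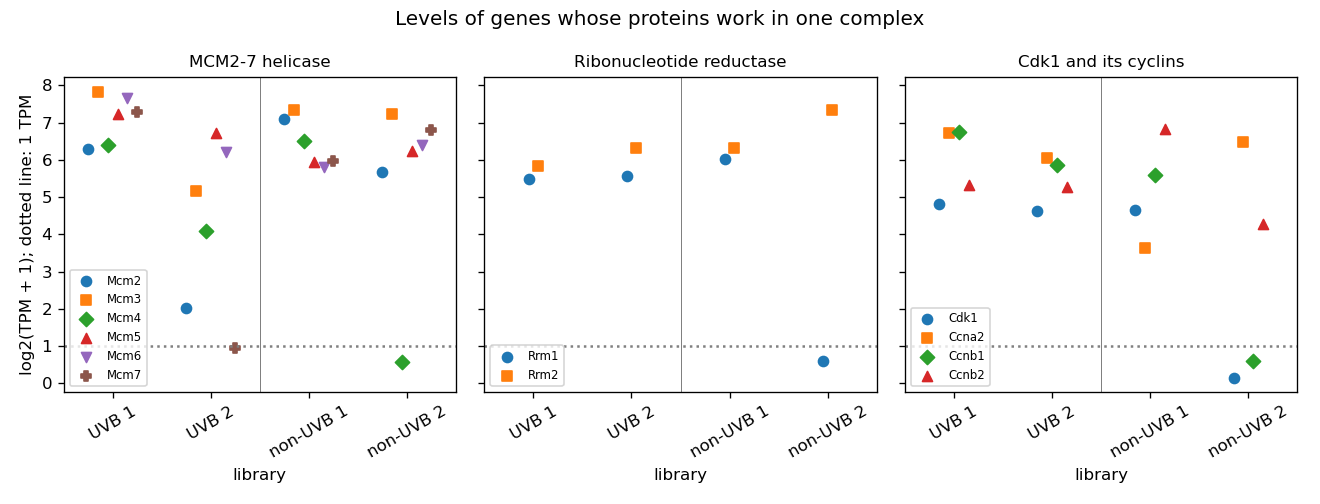
Levels, as log2(TPM + 1), of genes for the MCM2-7 helicase, ribonucleotide reductase and Cdk1 with its cyclins in each library; each symbol is a gene. Mcm7 in UVB 2 and Mcm4, Rrm1, Cdk1 and Ccnb1 in non-UVB 2 lie below the dotted line at 1 TPM, apart from most other genes of their panel.

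S phase genes and mitosis genes were lowest in different libraries. S phase genes at 1 TPM or more numbered 15 and 12 of 15 in UVB replicates 1 and 2 and 13 and 12 of 15 in non-UVB replicates 1 and 2. Mitosis genes numbered 20 and 17 of 21 with UVB and 14 and 9 of 21 without it. The median S phase gene was at 77.1 and 27.7 TPM with UVB, against 61.3 and 50.5 TPM without it, and the median mitosis gene at 38.8 and 33.4 TPM against 30.8 and 0.508 TPM. UVB replicate 2 thus had the lowest S phase median and non-UVB replicate 2 by far the lowest mitosis median. Of 15 S phase genes 7 had their lowest level in UVB replicate 2, and of 21 mitosis genes 13 had theirs in non-UVB replicate 2, shares of 46.7% and 61.9%, where 15.0% and 25.6% of all genes tested had their lowest value in those libraries. Summed S phase TPM over summed mitosis TPM was 1.02 and 0.651 with UVB, against 0.792 and 2.06 without it. One UVB ratio lay between the non-UVB ratios, so the groups overlapped. With Hmgb2 and Stmn1 counted with mitosis, the ratio was 0.554 and 0.261 with UVB, against 0.501 and 0.688 without it, and with Ccna2 counted in S phase it was 1.18 and 0.802 against 0.809 and 2.87. Non-UVB replicate 2 was the highest of the 4 in each case. In the further genes of both phases that were listed by role, the corresponding ratio was 0.662 and 0.833 with UVB, against 0.949 and 0.654 without it. By medians the order differed: the median log2(TPM + 1) of S phase or replication genes minus that of mitosis genes was 0.975 and -0.26 with UVB, against 0.97 and 5.09 without it, among the members, and 0.711 and 0.586 with UVB, against -0.177 and 1.09 without it, among the other genes. Non-UVB replicate 2 was thus the highest of the 4 in the members by both measures, and in the other genes the highest by medians and the lowest by sums.

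**Figure D3:**
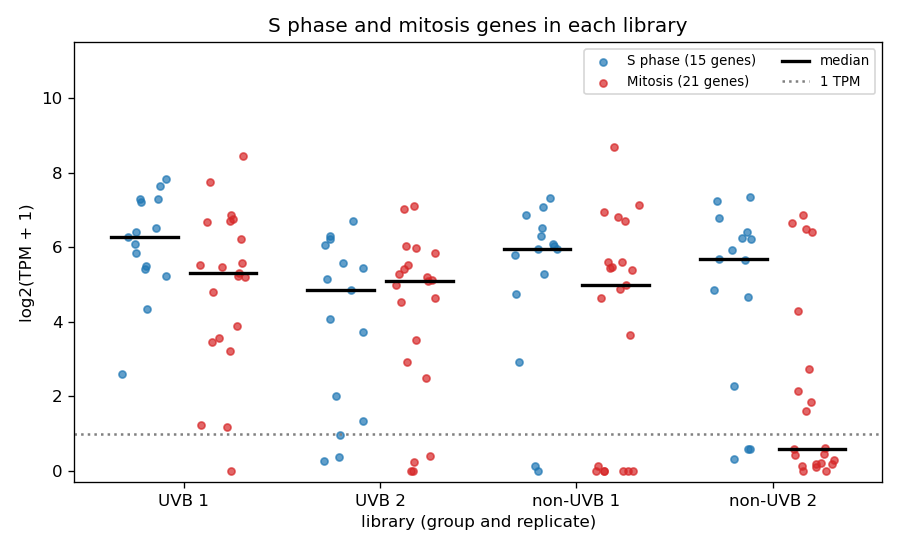
Levels, as log2(TPM + 1), of 15 S phase genes (blue) and 21 mitosis genes (red) in each library; each point is a gene and black bars are medians. The mitosis median lies below the dotted line at 1 TPM in non-UVB 2, at 0.508 TPM, and between 30.8 and 38.8 TPM in the other 3 libraries.

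More members were ordered by replicate number than by UVB. Both libraries numbered 1 exceeded both numbered 2 for 16 of the 34 members tested (47.1%, against 18.5% of all genes tested), 7 of S phase and 9 of mitosis, and the opposite held for 3 members, Cdc45, Rrm2 and Kif23 (8.82%, against 22.5%). Ube2c, the ubiquitin-conjugating enzyme that works with the anaphase-promoting complex, had 352 TPM in UVB replicate 1 and 417 TPM in non-UVB replicate 1, against 136 and 99.9 TPM in UVB and non-UVB replicate 2. Tk1, the thymidine kinase of the salvage pathway, had 157 TPM in UVB replicate 1 and 117 TPM in non-UVB replicate 1, while the replicates numbered 2 stood at 65.2 TPM with UVB and 74.1 TPM without it. Birc5, the survivin subunit of the chromosomal passenger complex, had 216 TPM in UVB replicate 1 and 139 TPM in non-UVB replicate 1, while the replicates numbered 2 stood at 129.8 TPM with UVB and 116 TPM without it. These genes were present in every library, and their libraries did not overlap by number. S phase genes summed to 1410 TPM (UVB) and 959 TPM (non-UVB) in replicate 1 of each group, and to 506 TPM (UVB) and 872 TPM (non-UVB) in replicate 2. Mitosis genes summed to 1389 TPM (UVB) and 1210.1 TPM (non-UVB) in replicate 1, and to 777 TPM (UVB) and 424 TPM (non-UVB) in replicate 2. Gamma-delta T cell genes were higher and keratinocyte genes lower in the libraries numbered 1, with the sums given above, and those libraries were also the deeper ones. Mitochondrially encoded genes held 0.487% of TPM in UVB replicate 1 and 0.857% in non-UVB replicate 1, against 6.42% in UVB replicate 2 and 5.73% in non-UVB replicate 2. Haemoglobin genes held 0.153% and 0.255% with UVB, against 11.7% and 0.441% without it. The part of any of these in the result was not tested. Of other genes of replication 6 of 29 tested had this order (20.7%), and of other mitosis genes 11 of 35 (31.4%).

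The design's own question is how UVB-exposed and non-exposed cells differ. Groups were compared with limma on log2(TPM + 1) across all 10286 genes. No member, and none of the 10286 genes (0.0%), had an adjusted p under 0.05 after Benjamini-Hochberg adjustment, and 1167 had an unadjusted p under 0.05. Of these, 1026 were higher with UVB (9.97% of genes tested) and 141 lower (1.37%), and the members held 2 of the higher ones, Aurka and Cenpf (5.88%), and none of the lower ones. Both reached 1 TPM in the UVB libraries alone, so they passed the filter only through the group where they were high. Their differences and p-values are therefore given as description only. Over all 38 members, 28 had a higher mean with UVB, 73.7% beside 62.0% of all genes above 0 in at least 1 library, and among genes tested the shares were 24 of 34 members (70.6%) and 61.0% of all genes. The UVB libraries did not overlap the non-UVB libraries for 8 members on the higher side, 23.5% of those tested beside 23.2% of all genes, and for Gins2 on the lower side, 2.94% beside 9.71%. The share on the higher side was thus close to that of all genes, for which the median difference was 0.26 log2. Median scaling moved that median to -0.35, gave 4 members higher and 4 lower without overlap (beside 15.1% and 20.2% of all genes), and gave a higher mean with UVB for 16 of 34 members.

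Mitosis genes made up 5 of the 8 members higher without overlap before median scaling, 27.8% of the 18 mitosis genes tested. That share was near the 23.2% of all genes. Aurka and Cenpf, which passed the filter only through the UVB libraries, are among these 5. Aurka, the kinase of spindle poles, had 35.7 and 33.4 TPM in the UVB libraries and was listed at 0 and at 0.224 TPM in the non-UVB libraries, a log2 difference of 5.00 ± 1.01 (SE, n = 2 per group, limma adjusted p = 0.223). Cenpf, a large kinetochore protein, had 10.9 and 45.4 TPM with UVB, against 0.0994 and 0.0763 TPM without it, a difference of 4.43 ± 1.14 (adjusted p = 0.25 by limma). Aurka is ENSMUSG00000027496 at chr2:172356190-172370535 and Cenpf ENSMUSG00000026605 at chr1:189640606-189688086 in GRCm38. Both genes had a few reads at most without UVB, about 0 and 7 for Aurka and 2 and 7 for Cenpf. With UVB, Aurka had about 1800 and 1011 reads and Cenpf about 3300 and 786. For Cenpf the order of the UVB libraries by reads was thus the opposite of that by TPM, since its average transcript was 11.1 kb in UVB replicate 1 and 1.06 kb in UVB replicate 2. Prc1, which bundles microtubules of the central spindle, had 117 and 62.2 TPM with UVB, against 30.8 and 0.341 TPM without it. Ccnb1, the cyclin that activates Cdk1 for entry into mitosis, had 107 and 57.0 TPM with UVB, against 47.4 and 0.508 TPM without it. Prc1 in UVB replicate 2 rested on an average transcript of 0.71 kb, against 2.86 kb in UVB replicate 1 and 2.98 and 2.91 kb in the non-UVB libraries. In reads, Prc1 had about 9057 and 723 with UVB, against 2076 and 17 without it, so its groups overlapped on that scale. Ccnb1 overlapped in reads too, at about 5879 and 2298 against 2665 and 22. Reads are not scaled to the depth of the libraries, which differed. For Prc1 and Ccnb1 the gap between the groups was narrower, since non-UVB replicate 1 held both transcripts and non-UVB replicate 2 was near 0. Mki67, the nuclear antigen Ki-67 used to mark dividing cells, had 9.95 and 6.59 TPM with UVB and was listed at 0 and at 2.03 TPM without it, a difference of 2.39 ± 0.98 (limma adjusted p = 0.552).

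The other mitosis genes that were tested did not part by group. Aurkb, the kinase of the passenger complex, had 101 and 42.1 TPM with UVB, against 121 and 0.525 TPM without it, and Cdc20, an activator of the anaphase-promoting complex, had 46.5 and 30.7 TPM against 104 and 0.366 TPM. Top2a, the topoisomerase that untangles replicated DNA, had 44.7 and 33.8 TPM against 48.0 and 5.66 TPM. In each of these 3, non-UVB replicate 1 was above both UVB libraries and non-UVB replicate 2 below both. The spindle motors Kif11 and Cenpe had 1.36 and 22.1 TPM and 1.24 and 10.5 TPM with UVB, against 43.4 and 0.153 TPM and 42.2 and 0.136 TPM without it. Kif23, a motor of cytokinesis, was listed at 0 and stood at 4.65 TPM with UVB, against 0 and 84.8 TPM without it. Plk1, Bub1 and Bub1b, kinases of mitotic entry and of the spindle checkpoint, reached 1 TPM in UVB replicate 1 alone, at 43.1, 8.38 and 13.9 TPM, and were not tested. Plk1 stood at 0.177 TPM in UVB replicate 2 and was listed at 0 without UVB. Its UVB values thus lay above its non-UVB values, the lower of them near 0. Bub1 was listed at 0 in the other 3 libraries, and Bub1b at 0 in UVB replicate 2 and non-UVB replicate 1 and at 0.13 TPM in non-UVB replicate 2. Ccnb2, a second B-type cyclin, had 38.8 and 37.7 TPM with UVB, against 112 and 18.5 TPM without it. The spindle assembly genes Tpx2 and Nusap1 had 36.6 and 0.31 TPM and 73.5 and 35.5 TPM with UVB, against 28.7 and 2.63 TPM and 40.8 and 3.39 TPM without it. These, with Ccna2, Cdk1, Birc5 and Ube2c, make up 7 further mitosis genes whose groups overlapped.

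S phase genes showed no common direction with UVB. Of the 15, 9 had a higher mean with UVB and 6 a lower one (60.0% higher), and their median difference was 0.13 log2, beside 1.70 for all 21 mitosis genes, of which 17 had a higher mean (81.0%). Of all genes above 0 in at least 1 library, 62.0% had a higher mean with UVB, and the median difference was 0.04 log2. The difference between the S phase and mitosis lists was not tested. Mcm5 had 149 and 103.8 TPM with UVB, against 60.6 and 75.0 TPM without it, a difference of 0.87 ± 0.54 (limma adjusted p = 0.843). Gins2, a subunit of the GINS complex that joins the helicase, had 5.07 and 12.2 TPM with UVB, against 26.0 and 50.5 TPM without it, a difference of -2.06 ± 1.05 (limma adjusted p = 0.712). These were the 2 S phase genes tested whose groups did not overlap. In Ccne1, which was not tested, the UVB values also lay above the non-UVB values, by 0.29 against 0.25 TPM in the replicates numbered 2. Uhrf1, which guides maintenance of DNA methylation, had 67.4 and 1.52 TPM with UVB, against 67.5 and 60.0 TPM without it, and Mcm2 had 77.1 and 3.04 TPM against 135 and 50.0 TPM. Cdc45, the partner of MCM and GINS, had 19.4 and 42.4 TPM against 0.0996 and 24.5 TPM. The cyclin E genes Ccne1 and Ccne2 had 42.0 and 0.29 TPM and 36.4 and 0.191 TPM with UVB, and Ccne1 was listed at 0 and stood at 0.25 TPM, and Ccne2 at 6.62 and 3.88 TPM, without it. Tyms, which makes thymidylate, had 89.9 and 27.7 TPM with UVB, against 37.9 and 28.0 TPM without it. Uhrf1 was low in UVB replicate 2 alone and Cdc45 in non-UVB replicate 1 alone, while Ccne1 was high in UVB replicate 1 alone.

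Stmn1 and Hmgb2 were abundant in every library. Stmn1, known as stathmin, had 872 and 709 TPM in the UVB libraries, against 471 and 572 TPM in the non-UVB libraries, a difference of 0.60 ± 0.34 log2 (limma adjusted p = 0.787). Hmgb2, a protein that bends DNA, had 283 and 453 TPM with UVB, against 234 and 272 TPM without it, a difference of 0.50 ± 0.44 (limma adjusted p = 0.967). Both UVB libraries lay above both non-UVB libraries for each gene, though median scaling turned the sign, to -0.01 for Stmn1 and -0.10 for Hmgb2.

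**Figure D4:**
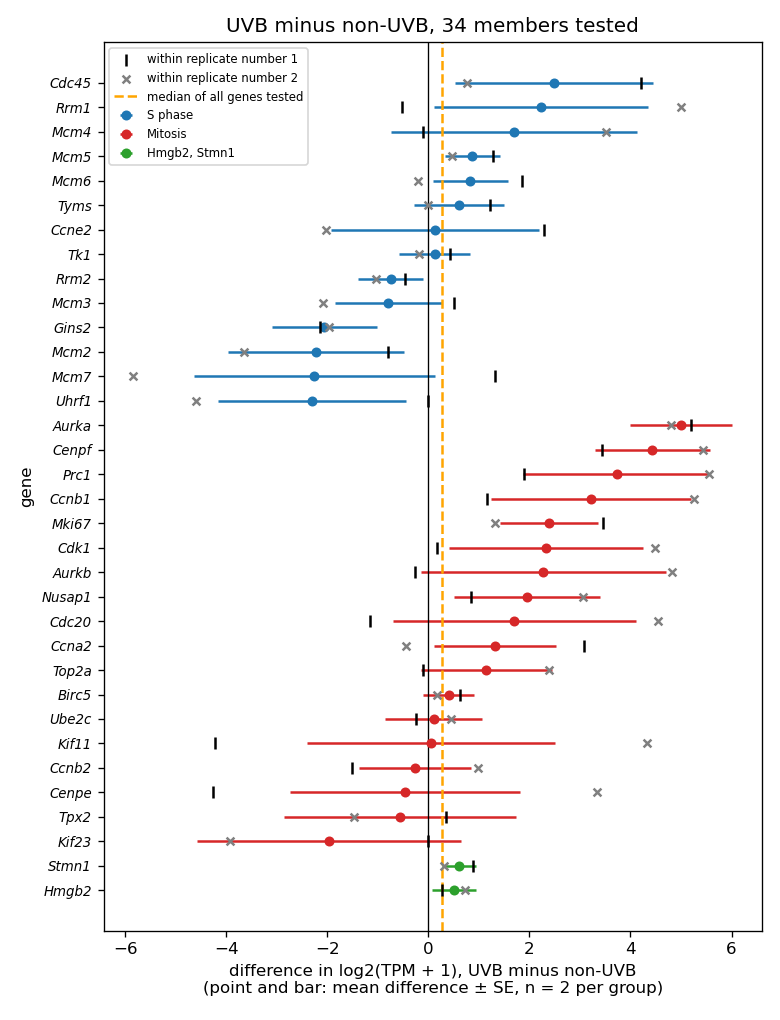
Difference in log2(TPM + 1), UVB minus non-UVB, for the 34 members tested, with its SE (n = 2 per group) and the differences within each replicate number. Aurka and Cenpf lie farthest to the right, at 5.00 and 4.43, and differences within the replicate numbers often fall on opposite sides of 0, as for Kif11 and Mcm7.

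Differences within the replicate numbers were read next. Of 18 mitosis genes tested, 8 were higher with UVB within both numbers (44.4%, against 34.0% of all genes tested) and none lower within both (17.7% of all genes). Aurka and Cenpf are among these 8. Both passed the filter only through the UVB libraries, so this order was fixed for them. Of 14 S phase genes, 2 were higher within both (14.3%) and 4 lower within both (28.6%). The median difference of the mitosis genes tested was 0.25 log2 for the libraries numbered 1 and 3.19 for the libraries numbered 2, and that of the S phase genes was 0.47 and -0.61, beside 0.27 and 0.16 for all genes. The higher mitosis median with UVB therefore rested on non-UVB replicate 2. Without that library it was 0.17 log2, below the 0.36 of all genes, against 1.50 with all 4 libraries. For the S phase genes the median was -0.51 when UVB replicate 1 was left out, 1.02 when UVB replicate 2 was, and -0.36 when non-UVB replicate 2 was. Beside these medians, macrophage and dendritic cell genes had their lowest sum, 5329 TPM, in non-UVB replicate 2. A higher mean with UVB was found for 15 of these 16 genes, beside 62.0% of all genes above 0 in at least 1 library. It was found for 5 of 8 Treg, 3 of 10 T cell and 5 of 7 gamma-delta genes. Of keratinocyte genes 7 of 12 had it, and of fibroblast and endothelium genes 2 of 9. The part of these cells in the result was not tested.

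Further genes of the same pathways, listed by role, were read from the same fit. Of 38 other replication genes 29 were tested, and 17 had a higher mean with UVB (58.6%, against 61.0% of all genes tested). Without overlap of the groups, 4 were higher (13.8%, against 23.2% of all genes) and 3 lower (10.3%, against 9.71%). Rfc5, a subunit of the clamp loader, had 29.1 and 27.0 TPM with UVB, against 0.0543 and 0.161 TPM without it, and Dbf4, the activator of the Cdc7 kinase, 37.4 and 76.0 TPM against 0.0136 and 2.32 TPM. Rfc5 thus passed the filter only through the UVB libraries. Rfc1, the large clamp loader subunit, had 15.9 and 27.9 TPM against 58.5 and 55.0 TPM, and Rpa3, of the single-strand binding complex, 86.7 and 0.604 TPM against 71.5 and 115 TPM. These 2 clamp loader subunits, Rfc5 and Rfc1, stood on opposite sides. Of 45 other mitosis genes 35 were tested, and 23 had a higher mean with UVB (65.7%, against 61.0% of all genes tested). Among them 8 were higher without overlap (22.9%, close to the 23.2% of all genes), and 1 gene was lower without overlap (2.86%, against 9.71%). Ckap5, a microtubule polymerase, had 17.2 and 30.7 TPM with UVB, against 0.0189 and 2.43 TPM without it, and Cdca8, the borealin subunit of the passenger complex, 93.9 and 155 TPM against 59.4 and 0.529 TPM. Foxm1, the transcription factor of mitosis genes, had 26.9 and 0.102 TPM against 21.2 and 11.1 TPM, and Ncaph, of condensin, 57.1 and 29.6 TPM against 57.0 and 184 TPM. None of these passed limma's test, with adjusted p from 0.223 upward.

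Genes that act at S phase entry or hold it back were listed by role too. Of 17 genes for D cyclins, G1 kinases and E2F factors 12 were tested, and none was higher in both UVB libraries while 3 were lower in both (25.0%, against 9.71% of all genes): Ccnd2, Ccnd3 and Cdk4. Ccnd2 and Ccnd3 were named after their values were seen. Cdk4, the kinase that D cyclins activate, had 128 and 92.4 TPM with UVB, against 218 and 192 TPM without it, a difference of -0.90 ± 0.46 (limma adjusted p = 0.714). Its partners Ccnd2 and Ccnd3 had 66.6 and 72.5 TPM and 240.1 and 103 TPM with UVB, against 108 and 96.4 TPM and 302 and 249 TPM without it. E2f1 had 25.5 and 37.9 TPM against 29.2 and 0.0863 TPM, E2f3 had 4.08 and 0.116 TPM against 0 and 25.7 TPM, and Cdk2 had 6.77 and 0.351 TPM against 0.00839 and 1.37 TPM. These 3 did not part by group. Of 24 inhibitors and quiescence genes 19 were tested, 7 higher (36.8%, against 23.2% of all genes) and 1 lower (5.26%, against 9.71%) without overlap. Cdkn2b, which encodes the Cdk4 and Cdk6 inhibitor p15, had 18.6 and 33.8 TPM with UVB and was listed at 0 without it. Lin9, a MuvB subunit, had 4.11 and 66.3 TPM against 0.02 and 0.0804 TPM. Cdkn1b, the inhibitor p27, had 0.224 and 12.8 TPM against 10.3 and 57.7 TPM, and the antiproliferative gene Btg2 had 131 and 173 TPM against 385 and 525 TPM. Cdkn2b, at 4.71 ± 0.96 log2, had a limma adjusted p of 0.223. Cdkn2b, Lin9 and Rbl1 reached 1 TPM in the UVB libraries alone, and so passed the filter only through that group. They are among the 7 counted as higher, an order that the filter fixed for them. Rbl1, of the retinoblastoma family, had 8.73 and 5.51 TPM with UVB, against 0.037 and 0.11 TPM without it. It was named after its values were seen.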

How the data were processed

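The labels' protocols give total RNA, a SMARTer ultra-low-input kit and 100 base single-end reads, and the submitters' processing notes name HISAT2, StringTie and DESeq2 as the authors' tools and the mouse build GRCm38 (mm10) without versions or roles. Strandedness, annotation version and the handling of reads shared between genes are not stated in those sources. Each deposited table lists, per gene row, TPM, FPKM and mean base coverage, as named in the file headers. Rows with one gene ID were summed, and TPM was used throughout. FPKM served as an alternative scale and the deposited coverage, times exon length from GENCODE vM21 and divided by a read length of 100 bases, gave approximate reads per gene, which accounted for 87.2% to 87.8% of each library's estimated total. The total was itself estimated from the ratio of coverage to FPKM.

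Of 55487 genes, the 10286 that reached 1 TPM in 2 or more libraries were tested with limma 3.58.1 (R 4.3.3), with an intensity trend, on log2(TPM + 1), UVB minus non-UVB without a block, with Benjamini-Hochberg adjustment at 0.05. Adding 1 shrinks the differences of genes at low TPM. Groups were taken not to overlap where both values of one lay above both of the other. The limma script was tested on simulated data. Members, pathway lists, markers and motifs were chosen with earlier results of these data known. All 38 members were to be described. From each pathway list the text names the 2 tested genes with the largest higher and the 2 with the largest lower difference, and from each marker list its sum and its 2 most abundant genes. Further T cell and marker genes, Ccnd2, Ccnd3 and Rbl1 were named after their values were seen. Alternatives were another pseudocount (0.1 in place of 1), filter or scaling, FPKM, a replicate block, and leaving out each library.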

Additional observations from a re-analysis of the deposited data

How the results depend on the processing

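No gene reached an adjusted p under 0.05 by limma in any of the 14 settings, where 703 to 1344 genes had an unadjusted p under 0.05. The median difference of S phase genes, 0.13 log2 as reported, was 0.03 to 0.17 with FPKM, other filters or no haemoglobin and mitochondrial genes, but -0.27 with a pseudocount of 0.1, -0.21 after quantile normalization and -0.48 after median scaling. Quantile normalization and median scaling moved the median of all genes to -0.19 and -0.35. Leaving out each library gave -0.51 to 1.02, with the highest value without UVB replicate 2. The mitosis median, 1.50 as reported, was 0.17 to 2.63 without a library and 0.90 to 1.73 in the settings that kept all 4 and the list of members. The S phase minus mitosis difference of -1.38 was -2.30 to -0.53 without a library. Under median scaling 8 of 34 members changed sign, Hmgb2, Stmn1, Birc5, Ube2c, Tk1, Ccne2, Tyms and Kif11, and 10 did without non-UVB replicate 2. With a library left out, the remaining library of its group is assumed to vary like those of the other group.

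The following alternatives were chosen after seeing the data. The ratio of S phase to mitosis TPM in non-UVB replicate 2 was 2.06 as reported, 0.688 with Hmgb2 and Stmn1 in mitosis and 2.87 with Ccna2 in S phase, and was the highest of the 4 libraries each time. Members with both UVB libraries above both non-UVB libraries numbered 8 as reported, 4 under median scaling (15.1% of all genes) and 7 or 8 otherwise, and those with both below numbered 1 as reported, 4 under median scaling (20.2%) and 1 or 2 otherwise. Those higher in both libraries numbered 1 numbered 16 as reported, 11 under median scaling (15.3% of all genes) and 14 to 16 otherwise.

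The replicate numbers were not taken as pairs, since there are only 2 and no label ties them to a day or batch. Deviations of same-numbered libraries from their group means correlated at 0.165 over 10286 genes. With a replicate block, limma again called 0 genes and left the medians at 0.13 and 1.50.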
